A study of Homo sapiens with 6 samples.

Results

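The genes described here are 45 imprinted genes in RD cells, chosen by matching a list of symbols to the count table, with the TAK1 shRNA against scrambled shRNA differences of these same samples known. They occupy 46 of 58735 rows, since IGF2 has 2 rows and one of these holds a single read in all. By the parental copy they are held to use, 21 are paternally expressed, 16 maternally expressed, and for 8 the origin depends on isoform or tissue or is disputed. Because the comparison of the groups was in view when the list was made, the values below describe these samples, and no p-value is given for a listed gene. The reads were not separated by parental copy, so a level is the sum of both copies.

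Genomic imprinting leaves a gene active on the copy inherited from one parent and silent on the other. The memory of parental origin is DNA methylation set in the egg or sperm at imprinting control regions and kept through every later cell division. Imprinted genes tend to lie in clusters, in which a paternally expressed gene and a maternally expressed gene often share one control region. Many paternally expressed genes promote growth, IGF2 above all, and many maternally expressed genes restrain it, as CDKN1C does. Disturbed imprinting at the IGF2-H19 and CDKN1C region of chromosome 11 underlies Beckwith-Wiedemann syndrome, in which embryonal tumours including rhabdomyosarcoma occur.

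RD is an established line of embryonal rhabdomyosarcoma (ERMS), a soft tissue tumour with features of the skeletal muscle lineage. TAK1, encoded by MAP3K7, is a kinase that relays cytokine and growth factor signals to the MAPK and NF-kB pathways. The cells received lentiviral particles that carried either scrambled shRNA (n = 3) or TAK1 shRNA (n = 3), and polyadenylated RNA was sequenced. A single shRNA against TAK1 in a single line was sequenced, so effects of that shRNA on other targets cannot be told apart from those of TAK1 loss. The libraries held 28839898 to 34469323 counts. Levels are given as CPM, the counts of a gene for every 1000000 counts of its library, with library sizes scaled by the trimmed mean of M-values.

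MAP3K7 was at 77.3 ± 0.743 CPM in the control samples and 31.3 ± 2.00 CPM in the knockdown samples (SD, n = 3 each), a log2 fold change of -1.30 ± 0.062 (SE) and an edgeR adjusted p of 4.45e-14, with no overlap. The exact two-sided permutation test gave p = 0.1, the smallest that 3 against 3 allows. Among the 15935 genes tested, 1879 were higher and 1805 lower. Both limits had to be met here and below, with adjusted p < 0.05 and a log2 fold change of 0.25 or more in size. Scaling by library size alone moved this split to 2376 higher and 1404 lower. Of 7 muscle lineage markers, MYF5 was at 0 and MYOD1, MYOG and CHRNG rose while CHRNA1 fell, and their summed level ran from 1934 to 1971 CPM in the control and from 1860 to 1991 CPM in the knockdown samples. Blood markers summed to at most 0.413 CPM in a sample, and endothelial markers to at most 0.162 CPM. Of the 4 epithelial markers CDH1 was at 0, and the sum, nearly all KRT18, ran from 52.5 to 59.8 CPM and from 25.5 to 28.1 CPM. The 3 neuronal markers summed to between 7.10 and 8.41 CPM. Whether these shifts bear on the imprinted genes was not tested, and in bulk samples a smaller share of one kind of cell cannot be told apart from less RNA per cell.

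RefSeq promoter windows (GRCh38.p14) were on hand for 30 of the 45 genes, and the first window listed for each was read. Shown are the 250 bases before the RefSeq start of the 5 listed genes that both have such a window and changed past the thresholds. Gene positions and distances given below come from GENCODE, whose starts can differ from those of RefSeq. The windows of MEG3 and PPP1R9A lie inside the GENCODE span of their gene, and that of BLCAP overlaps the GENCODE start of its gene. Capitals mark the CpG dinucleotides, the kind of site at which imprints are written. Whether these windows lie in imprinting control regions was not tested. Each runs from 5′ to 3′ in the direction of transcription.
NAP1L5 (chr4:88697830-88698079, minus strand): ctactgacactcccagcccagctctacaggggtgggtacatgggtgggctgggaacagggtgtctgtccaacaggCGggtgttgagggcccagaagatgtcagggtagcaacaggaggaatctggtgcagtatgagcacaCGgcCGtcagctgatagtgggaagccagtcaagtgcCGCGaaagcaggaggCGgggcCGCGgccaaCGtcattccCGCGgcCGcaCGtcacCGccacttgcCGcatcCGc
MEG3 (chr14:100825858-100826107, plus strand): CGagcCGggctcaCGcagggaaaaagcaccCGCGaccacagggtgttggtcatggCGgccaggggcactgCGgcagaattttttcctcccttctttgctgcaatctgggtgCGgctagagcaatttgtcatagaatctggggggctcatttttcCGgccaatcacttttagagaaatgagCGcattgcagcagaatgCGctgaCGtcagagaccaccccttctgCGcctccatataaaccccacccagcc
PPP1R9A (chr7:94907344-94907593, plus strand): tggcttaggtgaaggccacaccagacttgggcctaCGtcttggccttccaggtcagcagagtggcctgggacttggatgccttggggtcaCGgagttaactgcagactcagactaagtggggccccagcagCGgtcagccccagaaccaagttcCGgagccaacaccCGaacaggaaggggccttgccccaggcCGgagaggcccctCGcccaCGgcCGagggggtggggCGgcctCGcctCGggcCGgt
TFPI2 (chr7:93890754-93891003, minus strand): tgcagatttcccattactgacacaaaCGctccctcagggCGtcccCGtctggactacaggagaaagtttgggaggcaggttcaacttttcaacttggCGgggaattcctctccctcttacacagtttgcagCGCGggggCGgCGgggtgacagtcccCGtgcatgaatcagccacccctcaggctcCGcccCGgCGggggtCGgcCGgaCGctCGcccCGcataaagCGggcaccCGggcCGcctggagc
BLCAP (chr20:37527877-37528126, minus strand): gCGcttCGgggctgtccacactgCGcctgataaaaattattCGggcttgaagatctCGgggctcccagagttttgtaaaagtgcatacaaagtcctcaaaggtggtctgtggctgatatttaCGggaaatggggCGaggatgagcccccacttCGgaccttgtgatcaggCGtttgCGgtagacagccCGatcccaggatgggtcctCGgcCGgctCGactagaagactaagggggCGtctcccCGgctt

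These windows held 16 (NAP1L5), 13 (MEG3), 13 (PPP1R9A), 20 (TFPI2) and 16 (BLCAP) CpGs, against a median of 11 over the windows of 27305 symbols. The median of the 30 windows of listed genes was 16. At least as many CpGs as in TFPI2 were held by 32.1% of all windows, and as in MEG3 by 46.4%. ZFP57, a zinc finger protein that keeps imprints in the early embryo, binds the methylated hexamer TGCCGC. This hexamer, read on either strand as TGCCGC or GCGGCA, occurred in 12.6% of the 27305 windows and in 8 of the 30 windows of listed genes. Among the 5 printed it occurred 2 times in NAP1L5 and 1 time in MEG3. ERAP2 had 0 CpGs in its window and TP73 had 38, the lowest and highest of the listed genes.

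Of the 45 genes, 39 had enough reads to be tested. Of these, 7 rose and 5 fell, or 30.8%, beside 23.1% of all genes tested, with 11.8% up and 11.3% down. A further 6 passed the adjusted p but not the fold threshold, and 21 passed neither. The groups did not overlap for 19 of the 39, beside 43.9% of all genes tested. The median log2 fold change was -0.06, against 0.02 over all genes tested. Since the list was made with these differences known, nothing is read from these counts about imprinted genes as a class.

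Together the 45 genes made up 0.824% of the scaled library size in the control samples and 0.794% in the knockdown samples. These are not shares of the raw reads. The scaling factors were 0.977 to 0.988 in the control and 1.010 to 1.026 in the knockdown samples. Their summed level was 8240.1 ± 205 CPM and 7938 ± 214 CPM (SD, n = 3 each). Most of it came from MEST, PEG10, IGF2 and GNAS, which made up 81.3% of the sum in the control and 80.3% in the knockdown samples. Paternally expressed genes summed to 4876 ± 120 CPM and 4689 ± 191 CPM, and maternally expressed genes to 881 ± 12.7 CPM and 890.4 ± 19.3 CPM. Both sums overlapped between the groups. Most of the maternally expressed sum came from IGF2R and UBE3A, with control means of 514 and 133 CPM. UBE3A is read from both copies in most cells other than neurons. Whether 1 or both copies of IGF2R were read in these cells was not tested. This sum is therefore not a measure of RNA from the maternal copy. Per kilobase of annotated exon the highest level in the control samples was that of MEST, at 329 CPM per kb, followed by PEG10 at 246 CPM per kb, IGF2 at 183 CPM per kb and GNAS at 98.0 CPM per kb.

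**Figure D1:**
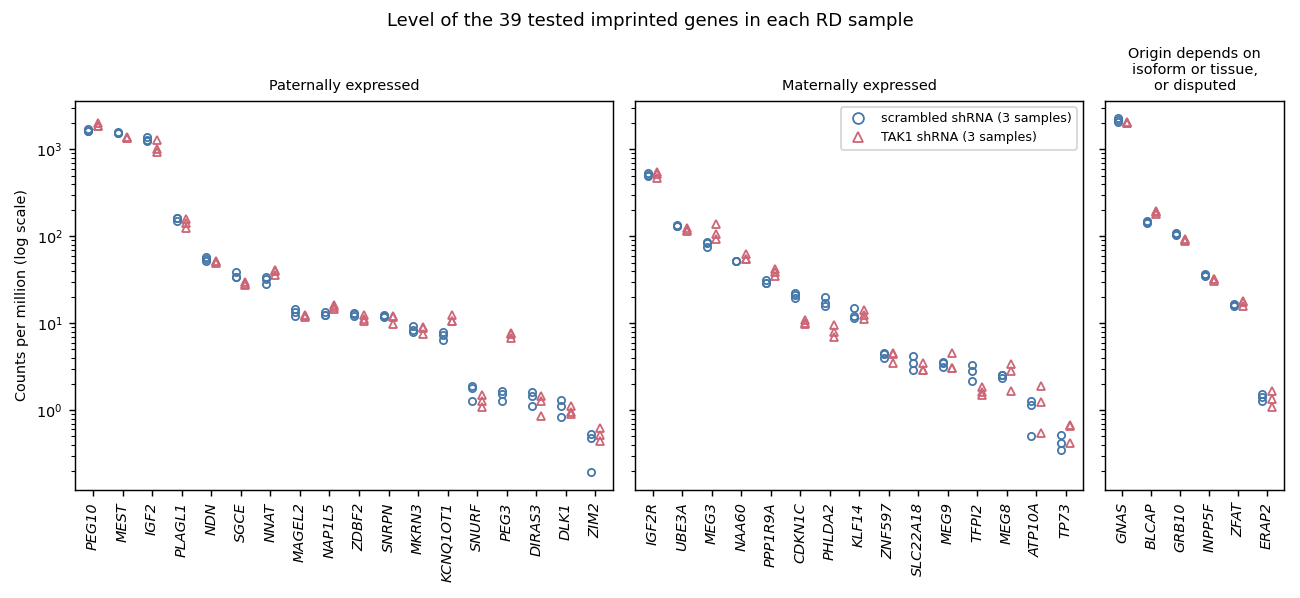
Level in CPM (log axis) of the 39 tested imprinted genes in each sample, sorted by the control mean within each class, with circles for the 3 scrambled shRNA and triangles for the 3 TAK1 shRNA samples. PEG10, MEST, IGF2 and GNAS lie highest, at 932 CPM or more in every sample, and the 2 clouds of PEG3, of CDKN1C and of PHLDA2 lie apart.

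Among the paternally expressed genes, 18 of 21 were tested. PEG3, KCNQ1OT1, NNAT and NAP1L5 rose, IGF2 and SGCE fell, PEG10 and MEST changed by less than the fold threshold, and 10 passed neither threshold. The genes called were 33.3% of the 18, beside 23.1% of all genes tested. The median of the 18 log2 fold changes was -0.12.

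PEG3 encodes a large zinc finger protein that is active in muscle progenitors and restrains growth in several tumours. It lies on chromosome 19 from 56810077 to 56840728 on the minus strand. PEG3 stood at 1.27, 1.52 and 1.65 CPM in the control samples and at 7.45, 7.70 and 6.85 CPM in the knockdown samples. Every knockdown sample exceeded every control sample by more than 4-fold. The log2 fold change was 2.30 ± 0.167 (SE), or 4.93-fold, the largest rise among the listed genes. Its reads numbered between 36 and 51 in the control libraries and between 218 and 272 in the knockdown libraries. ZIM2 shares its first exons with PEG3 on the same strand. It had 0.399 ± 0.179 CPM and 0.527 ± 0.090 CPM (SD, n = 3 each), and its log2 fold change of 0.41 ± 0.462 (SE) did not pass the test.

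KCNQ1OT1 is a long noncoding RNA, read from the paternal copy of an intron of KCNQ1, that silences neighbouring genes on the same chromosome. It lies on chromosome 11 from 2597308 to 2700003 on the minus strand. The control samples held 7.28, 6.48 and 7.95 CPM of KCNQ1OT1, and the knockdown samples 10.6, 10.6 and 12.5 CPM. The groups did not overlap, and the log2 fold change was 0.64 ± 0.115 (SE), or 1.55-fold. KCNQ1 itself, whose exons lie on the opposite strand, had 15 reads over all 6 libraries.

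IGF2 is the fetal growth factor of the insulin family and a known autocrine signal in rhabdomyosarcoma. It lies on chromosome 11 from 2129112 to 2158391 on the minus strand. For IGF2, the values were 1389, 1252 and 1282 CPM in control and 1280.2, 932 and 1009 CPM in knockdown samples. The first knockdown sample sat inside the control range, and the other two below it. The log2 fold change was -0.28 ± 0.0707 (SE), and 4 of 14 alternatives removed the call. Without TAK1 shRNA replicate 2 the log2 fold change was -0.19, without scrambled shRNA replicate 1 it was -0.24, and with library size alone it was -0.24. DESeq2 also gave no call. Without TAK1 shRNA replicate 1 the fall was larger, at -0.43. IGF2-AS, which overlaps IGF2 on the opposite strand, had a log2 fold change of -0.21 ± 0.0685 (SE), and the reads of the pair cannot be told apart without strand.

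PEG10 and SGCE start next to each other on chromosome 7 and point away from one another. PEG10 derives from a retrotransposon and is needed for the placenta, and SGCE is epsilon-sarcoglycan, a membrane protein of the dystrophin complex. PEG10 was measured at 1701, 1613 and 1629.5 CPM with scrambled shRNA and 1878, 1865 and 1993 CPM with TAK1 shRNA. The groups did not overlap, but the log2 fold change of 0.21 ± 0.0401 (SE) fell short of the threshold. With library size alone it was 0.26 and passed. Replicates 1 to 3 had 33.8, 34.0 and 38.8 CPM of SGCE with scrambled shRNA and 28.3, 29.7 and 27.7 CPM with TAK1 shRNA. SGCE fell by 0.31 ± 0.072 (SE) on the log2 scale, with all knockdown samples below all control samples. This call was lost without scrambled shRNA replicate 3, at -0.25. The pair had opposite signs in these samples, and whether the 2 changes differ from each other was not tested.

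NNAT, neuronatin, is a small membrane protein of the endoplasmic reticulum whose gene sits inside an intron of BLCAP on chromosome 20, from 37521206 to 37523690 on the plus strand. NNAT stood at 32.4, 33.6 and 28.5 CPM in the control samples and at 41.0, 40.3 and 35.6 CPM in the knockdown samples. The log2 fold change was 0.31 ± 0.0749 (SE), with no overlap. Without scrambled shRNA replicate 3 it was 0.24, just short of the threshold. NAP1L5, an intronless member of the nucleosome assembly protein family whose promoter is printed above, lies on chromosome 4 from 88695913 to 88697829 on the minus strand. The control samples held 12.3, 12.4 and 13.4 CPM of NAP1L5, and the knockdown samples 14.5, 15.6 and 16.4 CPM. The log2 fold change was 0.29 ± 0.0920 (SE), and leaving out any one of 3 samples (scrambled shRNA replicate 1 or 2, or TAK1 shRNA replicate 3) ended the call, at a lowest value of 0.23.

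MEST, a hydrolase-like protein first described in mesoderm, had 1568 ± 34.4 CPM and 1362 ± 19.04 CPM (SD, n = 3 each), a log2 fold change of -0.20 ± 0.0385 (SE) with no overlap. Its exons overlap those of COPG2 and MESTIT1 on the other strand. DLK1 is a transmembrane relative of the Notch ligands that marks fetal and regenerating muscle. For DLK1, the values were 1.13, 0.826 and 1.30 CPM in control and 1.13, 0.963 and 0.909 CPM in knockdown samples. These ranges overlapped, and the log2 fold change of -0.12 ± 0.323 (SE) was smaller than its standard error. RTL1, the other protein-coding member of that cluster in the list, had 49 reads in all and was not tested.

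The paternally expressed genes of the Prader-Willi region of chromosome 15 encode the MAGE family proteins NDN and MAGEL2, the ubiquitin ligase MKRN3 and the splicing protein SNRPN with its upstream reading frame SNURF. With edgeR 0 of the 5 passed both thresholds, beside 23.1% of all genes tested, and 0 had an unadjusted p under 0.05. DESeq2 and voom also called 0, and nothing is read from a count of 5 genes. NDN was measured at 57.2, 54.5 and 52.6 CPM with scrambled shRNA and 51.0, 48.7 and 51.4 CPM with TAK1 shRNA. NDN was the only one of the 5 without overlap between the groups, beside 43.9% of all genes tested. Its log2 fold change was -0.12 ± 0.0595 (SE). Replicates 1 to 3 had 14.7, 13.5 and 12.2 CPM of MAGEL2 with scrambled shRNA and 12.6, 11.7 and 11.97 CPM with TAK1 shRNA. MKRN3 stood at 7.91, 8.29 and 9.18 CPM in the control samples and at 9.13, 8.86 and 7.51 CPM in the knockdown samples. The levels of both genes overlapped between the groups. The control samples held 11.7, 12.4 and 12.2 CPM of SNRPN, and the knockdown samples 12.1, 11.9 and 9.94 CPM. For SNURF, the values were 1.27, 1.87 and 1.78 CPM in control and 1.27, 1.50 and 1.09 CPM in knockdown samples. SNRPN and SNURF share exons, so the reads of this pair could be split by the counting. The 5 log2 fold changes ran from -0.35 ± 0.271 for SNURF to 0.00 ± 0.117 for MKRN3 (SE).

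Of the paternally expressed genes that stand alone, PLAGL1, a zinc finger transcription factor, had 158 ± 8.30 CPM and 142 ± 17.2 CPM, DIRAS3, a small GTPase, had 1.40 ± 0.253 CPM and 1.19 ± 0.309 CPM, and ZDBF2 had 12.7 ± 0.639 CPM and 11.4 ± 0.851 CPM (SD, n = 3 each). Their ranges overlapped between the groups. PLAGL1 had a log2 fold change of -0.16 ± 0.0639 (SE), and it met both thresholds only when TAK1 shRNA replicate 2 was left out, at -0.25. L3MBTL1, with 57 reads in all, and GNAS-AS1, with 1 read, were not tested.

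Among the maternally expressed genes, 15 of 16 were tested. MEG3 and PPP1R9A rose, CDKN1C, PHLDA2 and TFPI2 fell, UBE3A changed by less than the fold threshold, and 9 passed neither threshold. The genes called were 33.3% of the 15, beside 23.1% of all genes tested. The median of the 15 log2 fold changes was 0.00.

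CDKN1C encodes p57, an inhibitor of cyclin-dependent kinases that acts in cell cycle exit, also of muscle precursors. It lies on chromosome 11 from 2883213 to 2885775 on the minus strand, and no annotated exon of another gene overlaps it. CDKN1C was measured at 21.1, 22.2 and 19.6 CPM with scrambled shRNA and 11.0, 9.80 and 10.1 CPM with TAK1 shRNA. The lowest control sample was well above the highest knockdown sample, and the log2 fold change was -1.03 ± 0.0911 (SE), a level 2.04-fold lower. PHLDA2, a pleckstrin homology protein that restrains placental growth, lies 43.6 kb away from 2928273 to 2929420 on the minus strand. Replicates 1 to 3 had 20.2, 16.9 and 15.7 CPM of PHLDA2 with scrambled shRNA and 9.51, 7.98 and 6.88 CPM with TAK1 shRNA. Again no samples overlapped, and the log2 fold change was -1.12 ± 0.116 (SE), or 2.17-fold lower. SLC22A18, a transporter gene between them, had a different pattern. SLC22A18 stood at 4.26, 2.89 and 3.50 CPM in the control samples and at 2.91, 2.92 and 3.45 CPM in the knockdown samples. Its ranges overlapped, and the log2 fold change of -0.19 ± 0.183 (SE) did not pass the test.

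H19, the noncoding RNA that shares its control region with IGF2, had few reads. It had 13, 3 and 2 reads in the control libraries and 11, 10 and 5 in the knockdown libraries, at most 0.457 CPM, and was not tested. IGF2 stood at 932 CPM or more in the same samples.

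**Figure D2:**
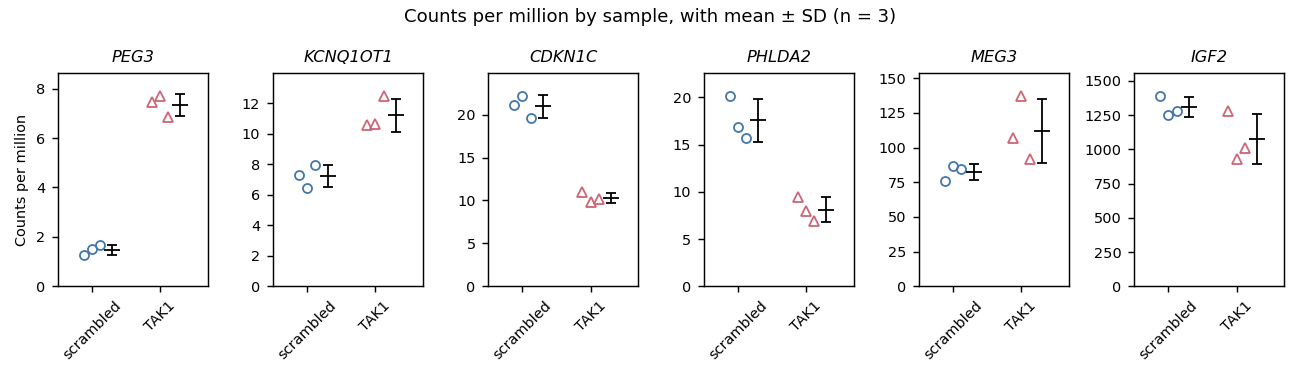
CPM of 6 imprinted genes in each sample (circles, scrambled shRNA, and triangles, TAK1 shRNA), with the mean and SD of the 3 samples beside them. PEG3 and KCNQ1OT1 are higher and CDKN1C and PHLDA2 lower in all 3 knockdown samples, MEG3 is higher with a wide spread, and the IGF2 ranges overlap.

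MEG3 is a long noncoding RNA of the DLK1-DIO3 cluster with growth-restraining activity, at chromosome 14 from 100779410 to 100861031 on the plus strand. The control samples held 76.2, 86.9 and 84.2 CPM of MEG3, and the knockdown samples 107, 137 and 92.0 CPM. The lowest knockdown sample was just above the highest control sample, and the spread between knockdown samples, 22.9 CPM (SD), exceeded that between control samples, 5.57 CPM. The log2 fold change was 0.44 ± 0.0880 (SE) and ranged from 0.27, without TAK1 shRNA replicate 2, to 0.56 when single samples were left out. MEG8 and MEG9 are noncoding RNAs read in the same direction further along the cluster. For MEG8, the values were 2.57, 2.32 and 2.53 CPM in control and 1.68, 3.37 and 2.85 CPM in knockdown samples. MEG9 was measured at 3.59, 3.14 and 3.54 CPM with scrambled shRNA and 3.04, 4.59 and 3.06 CPM with TAK1 shRNA. TAK1 shRNA replicate 2 was the highest of all samples for MEG3, MEG8 and MEG9 alike. Neither MEG8, at 0.10 ± 0.224 (SE), nor MEG9, at 0.07 ± 0.184 (SE), passed the test.

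PPP1R9A encodes neurabin, a scaffold that binds actin and protein phosphatase PP1, and lies on chromosome 7 from 94907202 to 95296415 on the plus strand. Replicates 1 to 3 had 28.7, 29.0 and 31.3 CPM of PPP1R9A with scrambled shRNA and 34.7, 38.7 and 42.1 CPM with TAK1 shRNA. The groups did not overlap, and the log2 fold change was 0.38 ± 0.0744 (SE). TFPI2, an inhibitor of serine proteases of the extracellular matrix, lies on the same chromosome from 93885396 to 93890753 on the minus strand. TFPI2 stood at 2.18, 2.79 and 3.28 CPM in the control samples and at 1.50, 1.61 and 1.85 CPM in the knockdown samples. It fell by 0.73 ± 0.224 (SE) on the log2 scale with no overlap. The call was lost without scrambled shRNA replicate 3, at -0.59.

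UBE3A, the ubiquitin ligase of Angelman syndrome, is imprinted in neurons and read from both copies in most other cells. The control samples held 133, 131 and 136 CPM of UBE3A, and the knockdown samples 115, 118 and 125 CPM. The groups did not overlap, and the log2 fold change was -0.16 ± 0.0489 (SE). ATP10A, a phospholipid flippase gene of the same region, was low and variable. For ATP10A, the values were 1.16, 0.508 and 1.26 CPM in control and 0.547, 1.25 and 1.88 CPM in knockdown samples. Its log2 fold change of 0.34 ± 0.390 (SE) did not pass the test.

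IGF2R carries IGF2 to the lysosome and so removes it. It had 514 ± 15.1 CPM in the control and 515 ± 38.1 CPM in the knockdown samples (SD, n = 3 each), a log2 fold change of 0.00 ± 0.049 (SE). NAA60, an acetyltransferase gene, was at 52.0 ± 0.327 CPM and 57.3 ± 4.27 CPM with no overlap, at a log2 fold change of 0.14 ± 0.0617 (SE) that did not pass the test. KLF14, ZNF597 and TP73, which encode transcription factors or zinc finger proteins, had control means of 12.9, 4.36 and 0.430 CPM and overlapping groups.

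Of the 8 genes whose parental origin depends on isoform or tissue or is disputed, 6 were tested. Of these 1 was called (16.7%, beside 23.1% of all genes tested). BLCAP, which encodes a small membrane protein lost in bladder cancer, rose. BLCAP was measured at 149, 145 and 143 CPM with scrambled shRNA and 191, 193 and 182 CPM with TAK1 shRNA. The groups lay well apart, and the log2 fold change was 0.37 ± 0.0467 (SE), the only value past the threshold in this class. BLCAP and NNAT overlap on opposite strands and both rose, and their reads cannot be told apart in the shared part. GRB10, an adaptor that dampens insulin and IGF receptor signals, had 107 ± 4.07 CPM and 90.9 ± 1.87 CPM (SD, n = 3 each). Its log2 fold change was -0.23 ± 0.0505 (SE) with no overlap, and without scrambled shRNA replicate 3 it crossed the threshold at -0.26. GNAS, the stimulatory G protein alpha subunit, had 2177 ± 89.4 CPM and 2029 ± 14.4 CPM, and INPP5F, a phosphoinositide phosphatase, had 35.9 ± 0.858 CPM and 31.6 ± 1.15 CPM (SD, n = 3 each). Both were below the fold threshold, at -0.10 ± 0.039 and -0.18 ± 0.066 (SE). ZFAT and ERAP2 overlapped between the groups. WT1 had 0 reads in every library, which allows up to 0.0849 to 0.106 CPM at 3 reads a library (counting error only), and DLX5 had 32 reads in all.

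**Figure D3:**
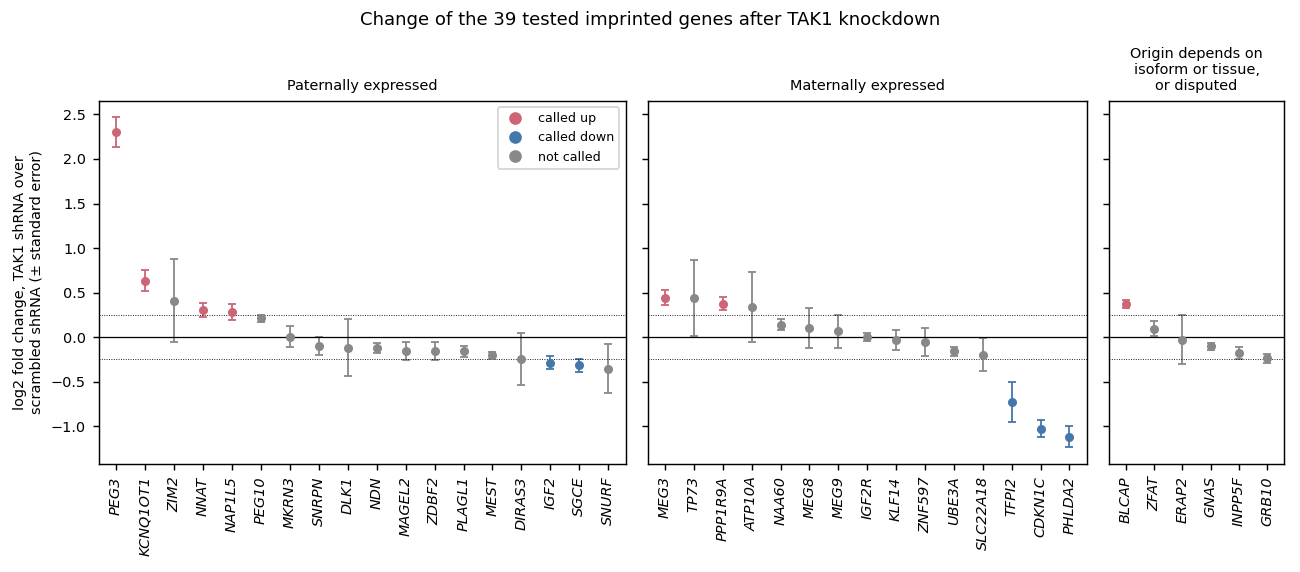
Log2 fold change of TAK1 shRNA over scrambled shRNA (n = 3 each) with its standard error for the 39 tested imprinted genes by class, with dotted lines at 0.25 and -0.25. PEG3 lies highest at 2.30, and CDKN1C at -1.03 and PHLDA2 at -1.12 lie lowest.

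The genes of 3 regions were then set beside those around them. In the stretch of chromosome 11 from KCNQ1OT1 to PHLDA2, with 500 kb on either side, 12 genes were tested. KCNQ1OT1 rose, and IGF2, CDKN1C and PHLDA2 fell, whereas SLC22A18 did not pass the test. Of the 7 placed genes in that stretch that are not on the list, 0 passed both thresholds with edgeR, DESeq2 or voom. Over all genes tested 23.1% passed both with edgeR, and nothing is read from a count of 7 genes. IGF2-AS and OSBPL5 among them are also held to be imprinted. Their log2 fold changes ran from -0.25 to 0.15. With edgeR 2 of the 7, IGF2-AS and CD81, had an adjusted p under 0.05, and the same number had an unadjusted p under 0.05. IGF2-AS passed both thresholds when TAK1 shRNA replicate 1 was left out, at -0.28. NAP1L4, a nucleosome assembly protein gene 106.6 kb from CDKN1C, was at -0.05 ± 0.046 (SE).

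In the DLK1-DIO3 cluster MEG3 rose and DLK1 did not pass the test. DIO3 lies at the far end of the cluster, 780.7 kb from MEG3, is paternally expressed and inactivates thyroid hormone. Replicates 1 to 3 had 4.15, 2.60 and 2.50 CPM of DIO3 with scrambled shRNA and 1.57, 1.36 and 1.33 CPM with TAK1 shRNA. It fell by 1.11 ± 0.238 (SE) on the log2 scale with no overlap. Of the 8 further tested genes placed around the cluster, 1 passed both thresholds, beside 23.1% of all genes tested. This was LINC02285, a noncoding RNA gene at a mean of 0.699 CPM. LINC02285 fell by 1.53 ± 0.463 (SE) on the log2 scale. Its call was lost without scrambled shRNA replicate 3 or without TAK1 shRNA replicate 2. Around PEG3, 18 further tested genes were placed, most of them zinc finger genes. Of these 18, 2 passed both thresholds, beside 23.1% of all genes tested. ZNF471 rose by 0.60 ± 0.142 and ZNF667-AS1 by 0.25 ± 0.072 (SE) on the log2 scale. The call of ZNF667-AS1 was lost in 5 of 14 alternatives, with a range of 0.20 to 0.30. The nearest placed gene besides ZIM2 was ZNF835, at 0.21 ± 0.140 (SE), which passed without TAK1 shRNA replicate 2 at 0.38.

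**Figure D4:**
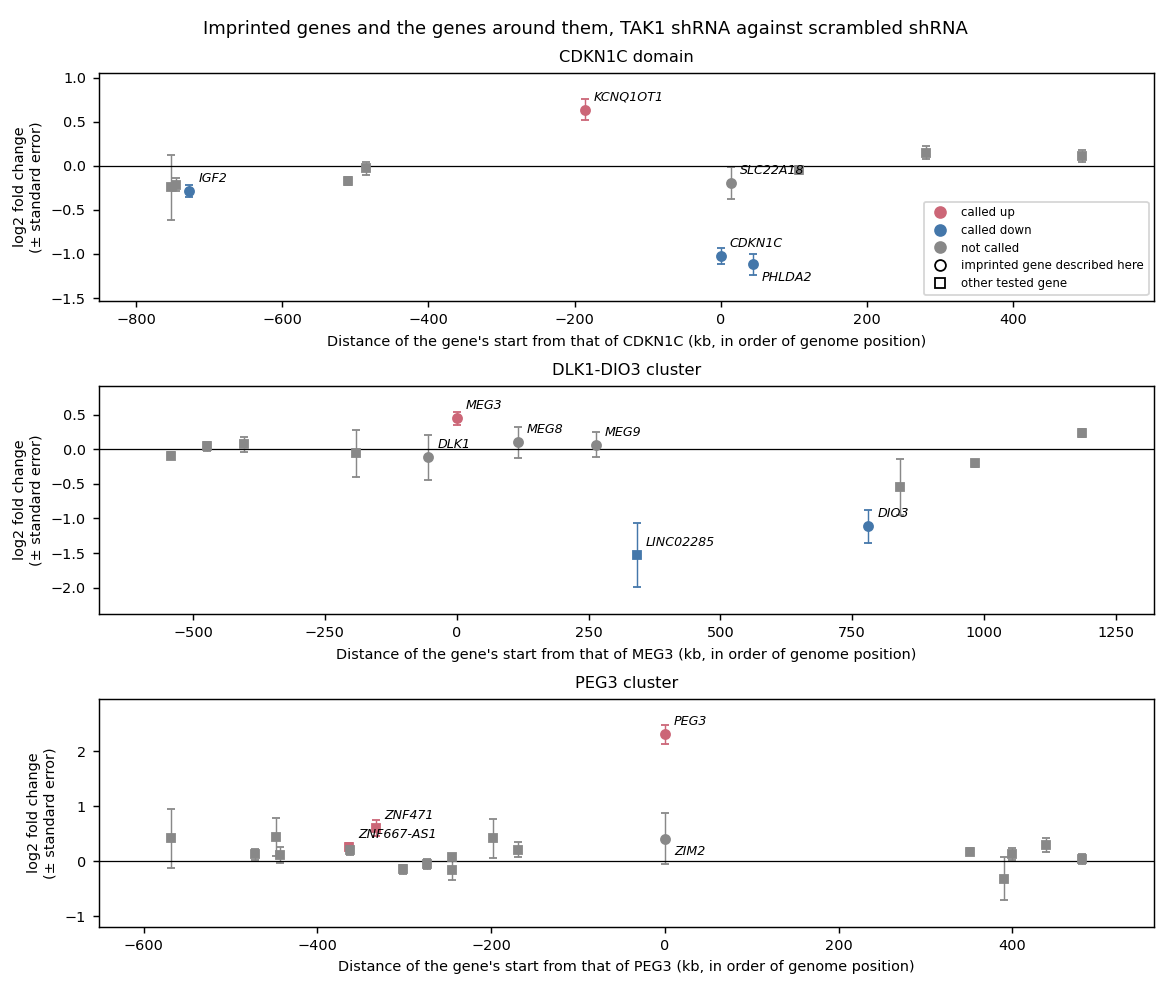
Log2 fold change with its standard error for every tested gene of 3 imprinted regions and 500 kb around them, against the distance of its start from that of CDKN1C, MEG3 or PEG3. CDKN1C and PHLDA2 lie near -1 among genes close to 0, KCNQ1OT1 lies above them at 0.64, and PEG3 stands alone at 2.30.

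Genes beside the imprinted clusters that are not held to be imprinted numbered 67, of which 53 were tested. Of these 4 rose and 7 fell (20.8%, beside 23.1% of all genes tested), with a median of -0.02. Of those with at least 1 CPM, the largest changes were those of VSTM2L beside NNAT at 0.82 ± 0.147 (SE), CLUAP1 beside NAA60 at 0.55 ± 0.102 (SE), ACAT2 beside IGF2R at -0.44 ± 0.0577 (SE) and RPRD1B near NNAT at -0.41 ± 0.0508 (SE). Of 41 imprinted genes outside the list, 19 were tested. Only DIO3 was called, and it fell (5.26%, beside 23.1% of all genes tested). A further 5 passed the adjusted p only.

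Imprints are kept by the maintenance methyltransferase DNMT1 with its partner UHRF1, by KRAB zinc finger proteins with TRIM28, and by CTCF at the IGF2-H19 control region. TET enzymes and TDG remove methylation. Of 39 such regulators, 34 were tested, 3 rose and 5 fell (23.5%, close to the 23.1% of all genes tested), and the median log2 fold change was -0.10. DNMT3B, a de novo methyltransferase, had 35.9, 37.3 and 37.4 CPM in the control samples and 27.2, 23.8 and 24.8 CPM in the knockdown samples, at -0.55 ± 0.0710 (SE). TET3, which oxidizes methylcytosine, was the one that rose most, from 109 to 123 CPM in the control to between 158 and 179 CPM in the knockdown samples, at 0.54 ± 0.0548 (SE). UHRF1 fell from a range of 966 to 1009.9 CPM to one of 708 to 719 CPM, at -0.46 ± 0.0400 (SE), and TDG fell at -0.46 ± 0.0636 (SE). None of these 4 overlapped between the groups. DNMT1, CBX3, TET1 and MBD3 also passed both thresholds, with absolute log2 fold changes of at most 0.31. They are named after their values were seen, and each but CBX3 lost its call under 1 or 2 of 14 alternatives. ZFP57 had 0 reads in every library, as did DNMT3L, CTCFL, DPPA3 and NLRP7. ZNF445, the other KRAB protein known to protect imprints, had log2 fold change 0.09 ± 0.0598 (SE), TRIM28 0.01 ± 0.0460 (SE) and CTCF -0.15 ± 0.0534 (SE), none of them past both thresholds.

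**Figure D5:**
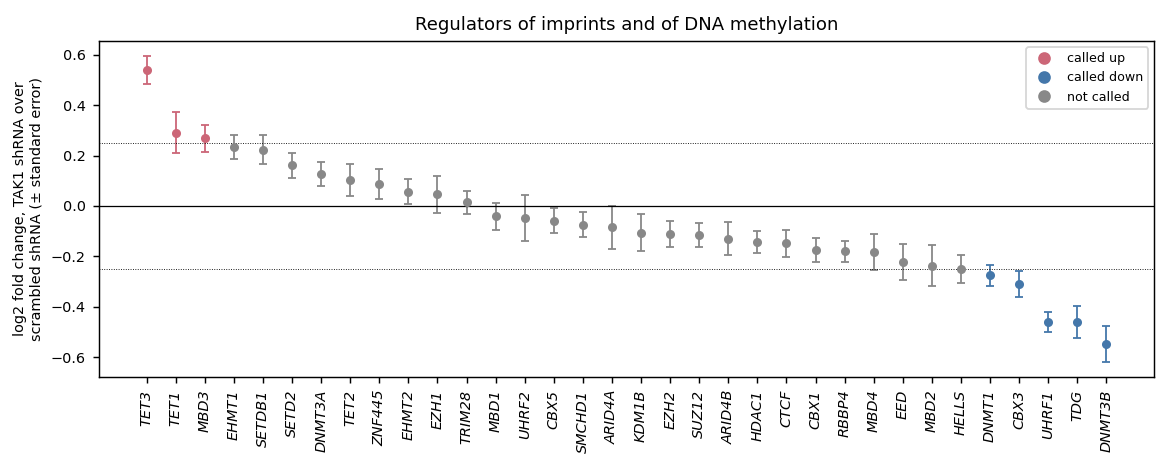
Log2 fold change with its standard error (n = 3 per group) for the 34 tested regulators of imprints and DNA methylation, with dotted lines at 0.25 and -0.25. TET3 lies highest at 0.54, and DNMT3B lowest at -0.55.

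IGF2 acts through IGF1R and INSR, is bound by IGFBPs and has its mRNA bound by IGF2BP proteins. Of 18 such genes 14 were tested, 2 rose and 3 fell (35.7%, beside 23.1% of all genes tested), with a median of 0.00. Nothing particular to the list is read from this count. IGFBP6, a binding protein that prefers IGF2, had 99.5, 93.4 and 91.1 CPM in the control and 79.0, 62.5 and 65.7 CPM in the knockdown samples, at -0.46 ± 0.0673 (SE). IGFBP5 rose, with 508, 465 and 477 CPM against 632, 597 and 659 CPM, at 0.38 ± 0.0463 (SE). HMGA2, a chromatin protein that raises IGF2BP2 transcription, fell at -0.37 ± 0.0405 (SE), and IRS2, an insulin receptor substrate, fell at -0.44 ± 0.169 (SE), a call that 10 of 14 alternatives removed. The remaining call was IGFBP3, which rose at 0.35 ± 0.0802 (SE). The receptors IGF1R, at 0.24 ± 0.0520 (SE), and INSR, at 0.24 ± 0.0873 (SE), stayed under the fold threshold, which both passed with upper-quartile scaling and with library size alone. IGF1R also passed without scrambled shRNA replicate 1 or without TAK1 shRNA replicate 2, and INSR without TAK1 shRNA replicate 3. IGF2BP1, IGF2BP2 and IGF2BP3 had log2 fold changes of at most 0.03 in size.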

How the data were processed

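Poly(A)-enriched RNA of RD cells was sequenced by the authors in paired-end reads, with bases called in CASAVA. Reads with adaptor sequence or of low quality were dropped, and the rest were aligned with STAR to GRCh38. The deposited values are raw counts of reads per gene symbol, without normalization by the authors. The counter, the annotation release, the use of strand and the handling of reads with several matches are not given in the sources used here. Genes whose exons overlap in GENCODE 44 may therefore share reads. Samples were grouped by their titles. Nothing in the labels says that the replicates were separate cultures, so p-values measure the spread between these samples. The total counts of 28839898 to 34469323 per sample and a common biological coefficient of variation of 5.67% set the precision, and counting error dominates for genes near 1 CPM. No pair of replicates agreed within counting error (chi-square over degrees of freedom, 2.80 to 7.94).

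Counts were compared with edgeR 4.0.16 (R 4.3.3) over the whole table: default expression filter, trimmed mean of M-values, quasi-likelihood test, p-values adjusted by Benjamini-Hochberg over the 15935 genes tested, and a gene was called with adjusted p < 0.05 and a log2 fold change of 0.25 or more in size, the thresholds of the study. Standard errors were derived from each gene's log2 fold change and F statistic. DESeq2 1.42.0, voom in limma 3.58.1, other normalizations, filters and fold thresholds, a replicate block and leaving out each sample were alternatives. The tests were checked on simulated data.

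The listed genes and the lists around them were chosen with earlier results of these data known. Values in every sample are given for listed genes that were called, for those of the IGF2-H19 and KCNQ1, DLK1-DIO3, PEG3, PEG10-SGCE and Prader-Willi clusters at a mean level of 1 CPM or more, and for IGF2, H19, MEG3, DLK1, CDKN1C and PEG3. From each other list the called genes with the 4 largest absolute log2 fold changes and a mean of at least 1 CPM are named, and genes named beyond this rule were chosen after their values were seen. The window of 500 kb and the 3 regions were chosen after the values were seen. Gene positions come from GENCODE 44 and promoter windows from RefSeq. 1 gene of the lists is not reported here.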

Additional observations from a re-analysis of the deposited data

How the results depend on the processing

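PEG3, KCNQ1OT1, MEG3, PPP1R9A, CDKN1C, PHLDA2, BLCAP and MAP3K7 kept their call and direction under all 14 alternative fits run at the same thresholds, and the calls lost or gained by other listed genes stand beside their values above. With a fold threshold of 0.5, 1415 of the 15935 genes tested were called. Among these were 2 of 18 tested paternally expressed genes, 3 of 15 maternally expressed and 0 of 6 of variable origin. Of the lists around them, 2 of 34 regulators of imprints, 0 of 14 IGF2 axis genes and 4 of 53 neighbours were called. With no fold threshold, 5303 of the 15935 genes tested were called. Among them were the 6 paternally expressed genes called above and the 2 of that class under the fold threshold. Also called were 6 of 15 maternally expressed genes, 4 of 6 of variable origin and 6 of 19 other imprinted genes. Of the further lists, 19 of 34 regulators, 8 of 14 IGF2 axis genes and 18 of 53 neighbours were called. Of the other imprinted genes, 2 were called with upper-quartile scaling and 2 with library size alone, and between 1 and 4 when single samples were left out. The genes of variable origin gave 1 to 2 calls when single samples were left out. Same-numbered replicates of the groups had correlations of deviations of 0.13, 0.07 and 0.05, so the numbers were not taken to pair the samples. The fit with a replicate block called 1942 genes higher and 1848 lower, 3790 in all. Depth limits the genes near or under 1 CPM, such as H19, DLK1, ZIM2 and TP73, whose standard errors exceed 0.3 where they were tested.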
